A study of Mus musculus with 4 samples.

Results

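Thrombospondin 1 (*Thbs1*), the genes of its receptors (*Cd36*, *Cd47* and the integrin chains *Itgav*, *Itgb3* and *Itga2*), *Sirpa*, whose product is the partner of CD47, and the thrombospondin-repeat protease gene *Adamts9* were followed through bulk RNA-seq of mouse peritoneal macrophages. These 8 of the 15298 genes measured were chosen by name, with their levels in these libraries already known. Their values are therefore given as a description, and no p-value is given for them. All 8 genes were measured in every library. Female BALB/c mice aged 6 weeks gave the macrophages, which were sorted as CD11b+ F4/80+ Ly6G- cells. The mice received microcurrent stimulation (MCS) of the abdomen for 15 min at ZT2 under 1.5% isoflurane, or went through the same procedure without current as control. ZT is zeitgeber time, the number of hours after lights on. Cells were collected at ZT2, right after the end of MCS, or 12 h later at ZT14. Each of the 4 conditions (control at ZT2, control at ZT14, MCS at ZT2 and MCS at ZT14) was 1 library. The libraries share strain, sex and the use of anesthesia, but not the time since it. Between ZT2 and ZT14, time of day and time since the procedure therefore cannot be told apart. The sources used here do not give the number of mice behind each library.

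Thrombospondin 1 is a large secreted glycoprotein that binds cell surfaces, matrix and latent TGF-beta, and platelets and macrophages both release it. It is known for bridging apoptotic cells to phagocytes through CD36 and the integrin formed by the αv and β3 chains, and it is also a ligand of CD47, the protein whose binding to SIRPα on macrophages restrains engulfment. ADAMTS proteases carry the same type of repeat as thrombospondin 1 and cleave matrix proteoglycans such as versican.

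Values are CPM, reads per gene scaled to a common library size, and the reads behind them could be recovered as whole numbers. The 4 libraries held between 8365590 and 9953243 reads over the listed genes. The library sizes implied by the scaling of the CPM lay between 8620125 and 9779756, so that 1 read was worth between 0.102 and 0.116 CPM. With 1 library per condition there was no replicate spread. The 95% intervals come from the reads (exact Poisson for a level and Clopper-Pearson for a ratio) and cover counting error only. They compare libraries, not groups of mice. The criterion for a changed gene was a log2 ratio beyond -1 or 1, together with a mean of the pair of libraries above 0 on the log2 CPM scale. In bulk RNA, a smaller share of cells that express a gene and less RNA per cell cannot be told apart. Macrophage markers summed to 24956 to 27436 CPM and those of large peritoneal macrophages to 12438 to 14052 CPM in all libraries. Most of the macrophage sum was *Lyz2*, at 17344 to 18847 CPM. Of the others, *Csf1r* stayed between 1028 and 1233 CPM, while *Mertk* ran from 97.7 to 188 CPM and *Adgre1* from 1086 to 1900 CPM. Mast cell markers (1067 to 2472 CPM) and B cell markers (1076 to 1556 CPM), which the sort for CD11b+ F4/80+ cells does not call for, were present as well. They are given with further markers after the 8 genes.

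All 8 genes have an entry in GENCODE vM21, which uses GRCm38, the assembly also called mm10 that the submitters' processing notes name. *Thbs1* lies at chr2:118111876-118127133 on the plus strand, *Sirpa* at chr2:129592835-129632228 on the plus strand and *Itgav* at chr2:83724397-83806916 on the plus strand. *Cd47* is at chr16:49800533-49915010 and *Itgb3* at chr11:104608000-104670476, both on the plus strand. *Cd36* is at chr5:17781690-17888801, *Itga2* at chr13:114833081-114932100 and *Adamts9* at chr6:92772699-92943492, all on the minus strand. Exons of *Thbs1* overlap those of *Gm29233* on the opposite strand, exons of *Itgav* overlap *Gm13684*, and exons of *Adamts9* overlap *A730049H05Rik* and *Gm15737*. The libraries were directional, but the sources used here do not say whether the counting used strand, and the values of these 3 genes are uncertain to that extent.

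The RefSeq promoter table (GRCm38.p6) held 6 entries for 5 of the 8 genes. The 250 bases upstream of the RefSeq start are shown for *Adamts9* and *Itga2*, which differed most between libraries among these 5 genes, and for *Itgav* and *Cd36*, whose levels stayed close together. The windows of *Cd36* and of *Cd47* belong to internal starts, since they lie within the span that GENCODE gives for the gene, downstream of its first start. Each is read 5′ to 3′ on the strand of the gene, and capitals mark a GC box (GGGCGG or its reverse complement).

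Adamts9, chr6:92943535-92943784, minus strand: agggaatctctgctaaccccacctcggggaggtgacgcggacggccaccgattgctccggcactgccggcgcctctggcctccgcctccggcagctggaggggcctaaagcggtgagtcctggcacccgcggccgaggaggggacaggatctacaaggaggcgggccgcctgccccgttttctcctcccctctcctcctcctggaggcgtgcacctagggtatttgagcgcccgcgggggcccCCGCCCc

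Itga2, chr13:114932101-114932350, minus strand: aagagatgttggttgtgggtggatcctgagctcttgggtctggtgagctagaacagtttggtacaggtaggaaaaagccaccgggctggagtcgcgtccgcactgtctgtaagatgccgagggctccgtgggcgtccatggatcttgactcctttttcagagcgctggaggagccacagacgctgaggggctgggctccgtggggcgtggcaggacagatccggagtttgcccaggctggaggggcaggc

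Itgav, chr2:83724147-83724396, plus strand: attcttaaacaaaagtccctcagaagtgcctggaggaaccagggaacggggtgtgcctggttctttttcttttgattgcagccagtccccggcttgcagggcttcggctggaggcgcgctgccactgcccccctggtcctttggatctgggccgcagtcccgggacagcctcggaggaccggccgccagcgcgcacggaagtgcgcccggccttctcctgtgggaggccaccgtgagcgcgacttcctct

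Cd36, chr5:17835897-17836146, minus strand: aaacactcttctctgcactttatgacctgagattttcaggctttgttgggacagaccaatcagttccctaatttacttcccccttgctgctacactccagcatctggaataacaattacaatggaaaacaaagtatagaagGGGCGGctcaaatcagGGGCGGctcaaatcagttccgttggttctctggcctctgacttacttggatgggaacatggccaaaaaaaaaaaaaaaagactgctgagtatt

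The *Adamts9* stretch was the richest of the 4 in G and C, at 71.2%, against 60.8% in *Itga2*, 64.4% in *Itgav* and 43.2% in *Cd36*. A GC box stood from 7 to 2 bases before the start of *Adamts9*, and *Cd36* had a pair, from 109 to 104 and from 93 to 88 bases before its start. Both entries of *Cd47* (chr16:49855404-49855653 and chr16:49855411-49855660, plus strand, overlapping) held the same 2 GC boxes. Of 32851 promoter entries of this length, 32.7% hold a GC box on either strand. An E-box (CACGTG, in 6.02% of all entries), a D-box (TTATGTAA, 0.819%), a cyclic AMP response element (TGACGTCA, 1.55%), an AP-1 site (TGANTCA, 6.75%), a TATA box (TATAAA, 12.4%) and a CArG box (1.47%) were also searched on both strands. None of these letters occurred in the 6 entries, which describes these windows only. *Itga2* and *Itgav* had no match to any motif searched.

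*Thbs1*, the ligand, had by far the widest range of the 8 genes. It stood at 1376 CPM (95% interval 1351 to 1401) in control at ZT2, 938 CPM (917 to 958) in MCS at ZT2, 200 CPM (191 to 209) in MCS at ZT14 and 73.8 CPM (68.3 to 79.6) in control at ZT14. The 4 intervals lay apart, both ZT2 libraries were high and both ZT14 libraries were low, and the MCS libraries stood inside the range set by the control libraries. The highest level was 18.6-fold the lowest.

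Between ZT2 and ZT14 in control, the log2 ratio of *Thbs1* was 4.22 (95% interval 4.11 to 4.33), which ranked 4 from the highest among 12465 genes. In MCS, the log2 ratio was 2.23 (2.16 to 2.30), a 4.69-fold difference and rank 67 of 12534 genes. The time ratio of *Thbs1* was thus smaller in MCS than in control, by -1.99 on the log2 scale (95% interval -2.12 to -1.86). MCS stood on opposite sides of control at the 2 time points. At ZT2, *Thbs1* was below control, at a log2 ratio of -0.55 (-0.59 to -0.51), and at ZT14 it was above control, at 1.44 (1.31 to 1.57). The latter is a 2.71-fold difference, and ranked 75 from the highest among 12368 genes.

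**Figure D1:**
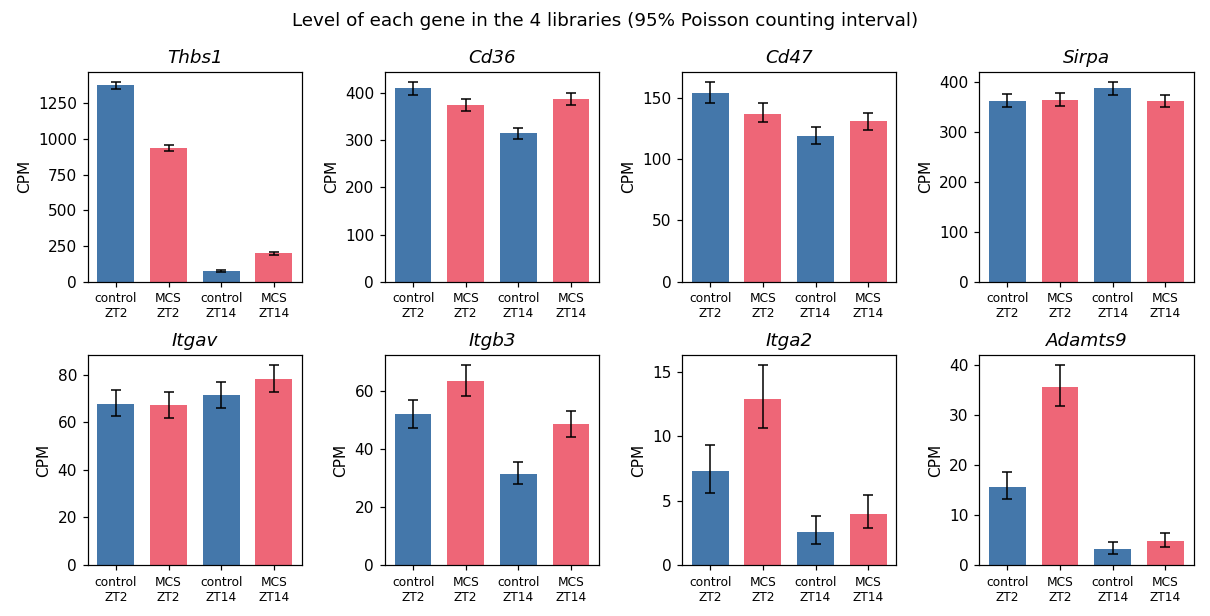
Level of each of the 8 genes in CPM (vertical axis, from 0, with its own scale in each panel) in the 4 libraries, with 95% Poisson counting intervals as error bars and 1 library per bar (control in blue, MCS in red). *Thbs1* ran from 73.8 to 1376 CPM and *Adamts9* from 3.30 to 35.7 CPM, whereas *Sirpa* stayed between 362 and 388 CPM.

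The scavenger receptor gene *Cd36*, whose product takes up oxidized lipids and apoptotic cells and binds the repeats of thrombospondin 1, varied far less. Its level was 410 CPM (396 to 423) in control at ZT2, 386 CPM (374 to 399) in MCS at ZT14, 374 CPM (361 to 387) in MCS at ZT2 and 314 CPM (302 to 325) in control at ZT14. The control library at ZT14 lay below the other 3, while neighbors among those 3 overlapped in their intervals. In control, *Cd36* was higher at ZT2 than at ZT14, with a log2 ratio of 0.38 (0.31 to 0.46). In MCS, the ratio was -0.05 (-0.12 to 0.02), so that no difference was detectable at this depth. With MCS it was lower at ZT2, at -0.13 (-0.20 to -0.06), and higher at ZT14, at 0.30 (0.23 to 0.37).

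*Cd47*, the gene of the widely expressed surface protein that binds both thrombospondin 1 and SIRPα, followed the same order at ZT2 and ZT14 as *Cd36* in control. It had 154 CPM (146 to 163) in control at ZT2, 137 CPM (130 to 146) in MCS at ZT2, 131 CPM (124 to 138) in MCS at ZT14 and 119 CPM (112 to 126) in control at ZT14. The control libraries held the highest and the lowest level, and the MCS libraries overlapped with each other in between. The log2 ratio of ZT2 to ZT14 was 0.38 (0.26 to 0.49) in control and 0.07 (-0.04 to 0.19) in MCS. The ratio of MCS to control was -0.16 (-0.28 to -0.05) at ZT2 and 0.14 (0.02 to 0.26) at ZT14. *Cd36* and *Cd47* thus had the signs of *Thbs1* in both comparisons of MCS with control, at log2 differences of 0.30 or less in size. The summed markers of large peritoneal macrophages had these signs as well, at -0.15 at ZT2 and 0.12 at ZT14. So did the median of these 11 markers, at -0.16 and 0.20, but not every marker. *Gata6* was higher with MCS at ZT2 (0.23) and *Prg4* was lower with MCS at ZT14 (-0.25). In ‰ of the marker sum, *Cd47* was 11.2 in control and 11.1 in MCS at ZT2, and 9.20 and 9.30 at ZT14. *Cd36* was 29.7 and 30.0 at ZT2, and 24.3 and 27.5 at ZT14. The part of these cells in the signs was not tested.

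*Sirpa*, which encodes the inhibitory receptor SIRPα of macrophages, was the steadiest of the 8 genes. It had 363 CPM (350 to 376, ZT2) and 388 CPM (375 to 401, ZT14) in control, and 365 CPM (352 to 378, ZT2) and 362 CPM (350 to 374, ZT14) in MCS. The highest was 1.07-fold the lowest, and the other 3 libraries overlapped with each other. The control library at ZT14 gave the only intervals of a ratio that excluded no change, at -0.10 (-0.17 to -0.03) both for ZT2 against ZT14 in control and for MCS against control at ZT14.

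The 3 integrin genes differed from each other in both level and range. *Itgav* encodes the αv chain, which pairs with several β chains to bind matrix proteins and thrombospondin 1. It had 67.9 CPM (62.5 to 73.6, ZT2) and 71.5 CPM (66.1 to 77.2, ZT14) in control, and 67.3 CPM (61.9 to 73.0, ZT2) and 78.3 CPM (72.9 to 84.1, ZT14) in MCS. The intervals of neighboring levels overlapped throughout, and of its ratios only that of ZT2 to ZT14 in MCS excluded no change, at -0.22 (-0.38 to -0.06).

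*Itgb3*, the gene of the β3 chain that pairs with αv on macrophages and with αIIb on platelets, had a 2.01-fold range. It stood at 63.3 CPM (58.1 to 68.9) in MCS at ZT2, 51.9 CPM (47.2 to 56.9) in control at ZT2, 48.5 CPM (44.2 to 53.0) in MCS at ZT14 and 31.5 CPM (28.0 to 35.4) in control at ZT14. The control library at ZT14 was the low one, and control at ZT2 and MCS at ZT14 overlapped. *Itgb3* was higher with MCS at both times, by a log2 ratio of 0.29 (0.11 to 0.47) at ZT2 and 0.62 (0.41 to 0.84) at ZT14. It was also higher at ZT2 than at ZT14, by 0.72 (0.50 to 0.94) in control and 0.39 (0.21 to 0.57) in MCS. None of its ratios reached 1, so *Itgb3* did not meet the criterion for a changed gene, and its partner *Itgav* did not follow it.

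*Itga2* encodes the α2 chain of a collagen receptor and had the lowest level of the 8 per kb of transcript. It had 12.9 CPM (10.6 to 15.5) in MCS at ZT2, 7.28 CPM (5.59 to 9.31) in control at ZT2, 3.99 CPM (2.84 to 5.45) in MCS at ZT14 and 2.53 CPM (1.60 to 3.79) in control at ZT14, from 111, 63, 39 and 23 reads. Both ZT2 libraries were above both ZT14 libraries, and the ZT14 libraries overlapped. The log2 ratio of ZT2 to ZT14 was 1.49 (0.82 to 2.28) in control, rank 99 of 12465 genes, and 1.67 (1.15 to 2.26) in MCS, rank 148 of 12534. MCS against control gave 0.82 (0.36 to 1.29) at ZT2 and 0.64 (-0.12 to 1.47) at ZT14, where a difference was not detectable at this depth. Between ZT2 and ZT14 in control, *Itga2* no longer met the criterion with a log2 mean above 3 or with the whole interval beyond 1.

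*Adamts9* encodes a secreted metalloprotease that cleaves versican and aggrecan, and it had the widest range after *Thbs1*, 10.8-fold. It stood at 35.7 CPM (31.9 to 40) in MCS at ZT2, 15.7 CPM (13.2 to 18.6) in control at ZT2, 4.91 CPM (3.62 to 6.51) in MCS at ZT14 and 3.30 CPM (2.22 to 4.70) in control at ZT14, from 308, 136, 48 and 30 reads. The ZT2 libraries lay apart from each other and above the ZT14 libraries, which overlapped. The log2 ratio of ZT2 to ZT14 was 2.22 (1.67 to 2.87) in control and 2.84 (2.42 to 3.33) in MCS, rank 25 in each case, among 12465 and 12534 genes. At ZT2, *Adamts9* was higher with MCS, by a log2 ratio of 1.18 (0.89 to 1.49), and at ZT14 the ratio was 0.56 (-0.11 to 1.28), with an interval that included no change. The interval at ZT2 did not lie wholly beyond 1. *Thbs1* and *Adamts9* therefore shared the direction of the time ratio, but at ZT2, right after MCS, they stood on opposite sides of control.

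**Figure D2:**
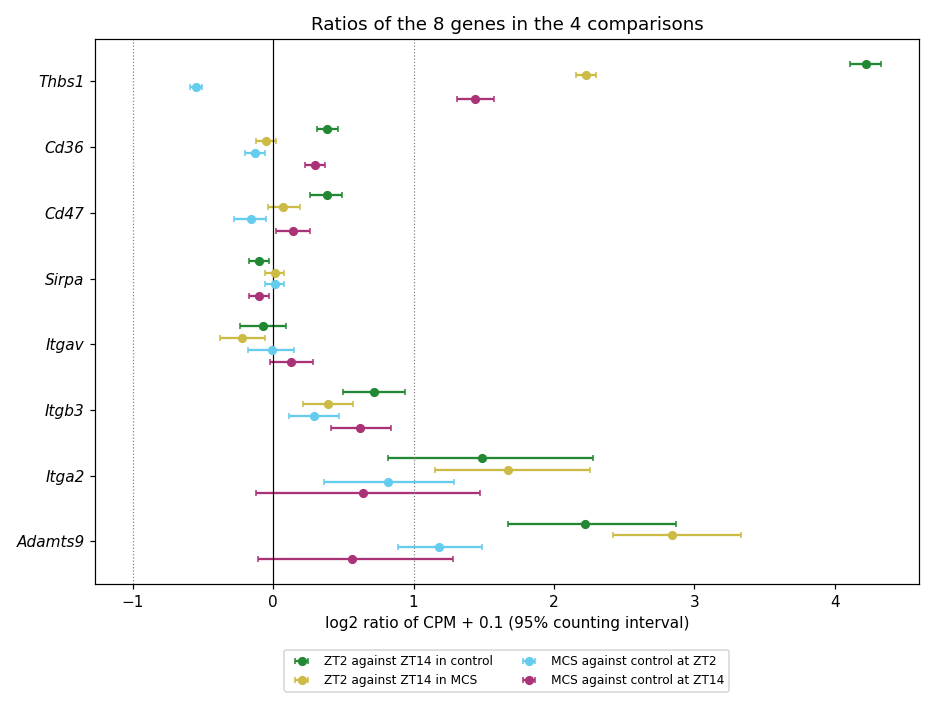
Log2 ratio of CPM + 0.1 (horizontal axis) of the 8 genes in the 4 comparisons, with 95% counting intervals, a solid line at 0 and dotted lines at -1 and 1. *Thbs1*, *Itga2* and *Adamts9* lie beyond 1 between ZT2 and ZT14, without and with MCS, *Adamts9* alone for MCS at ZT2 (1.18) and *Thbs1* alone for MCS at ZT14 (1.44).

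Counted over the 8 genes, 3 were changed between ZT2 and ZT14 in control (*Thbs1*, *Itga2* and *Adamts9*), all higher at ZT2, where 2.42% of 12465 genes were higher and 1.19% lower by the same criterion. No change lay outside the interval for 7 of the 8, with 6 above and 1 below, against 29.5% of all genes. The same 3 genes were changed in MCS, all higher at ZT2, where 3.96% of 12534 genes were higher and 1.87% lower. There the interval excluded no change for 5 of the 8 genes (4 above, 1 below), against 44.0% of all genes. The 8 genes had a median log2 ratio of 0.55 in control and 0.23 in MCS, while the median over all genes was 0.01 in MCS and also close to 0 in control. Since the genes were chosen with these values known, nothing is read from these counts about the group.

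MCS against control at ZT2 gave 1 changed gene of the 8, *Adamts9*, higher with MCS, where 1.44% of 12612 genes were higher and 0.769% lower. The interval excluded no change for 6 of the 8 genes, 3 above (*Itgb3*, *Itga2* and *Adamts9*) and 3 below (*Thbs1*, *Cd36* and *Cd47*), against 22.5% of all genes. At ZT14, *Thbs1* was the 1 changed gene, higher with MCS, where 1.84% of 12368 genes were higher and 1.57% lower. The interval excluded no change for 5 of the 8 genes, with *Thbs1*, *Cd36*, *Cd47* and *Itgb3* above and *Sirpa* below, against 37.6% of all genes. The median log2 ratio of the 8 at ZT14 was 0.43.

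*Thbs1*, *Cd36* and *Cd47* were the 3 of 8 genes whose intervals excluded no change in opposite directions at ZT2 and ZT14, lower with MCS at ZT2 and higher at ZT14. This held for 10.2% of 12236 genes. The time ratio itself differed between MCS and control by more than 1 on the log2 scale for 1 of the 8, *Thbs1*, against 7.88% of 12511 genes in either direction. The difference, MCS minus control, was -0.43 (-0.53 to -0.33) for *Cd36*, -0.30 (-0.46 to -0.14) for *Cd47* and -0.33 (-0.61 to -0.05) for *Itgb3*. For *Sirpa* it was 0.11 (0.01 to 0.21). It was 0.62 (-0.10 to 1.34) for *Adamts9*, 0.18 (-0.68 to 1.04) for *Itga2* and -0.14 (-0.37 to 0.08) for *Itgav*, and the intervals of these 3 genes included 0. These 4 comparisons share libraries in pairs, so they are not independent of each other.

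**Figure D3:**
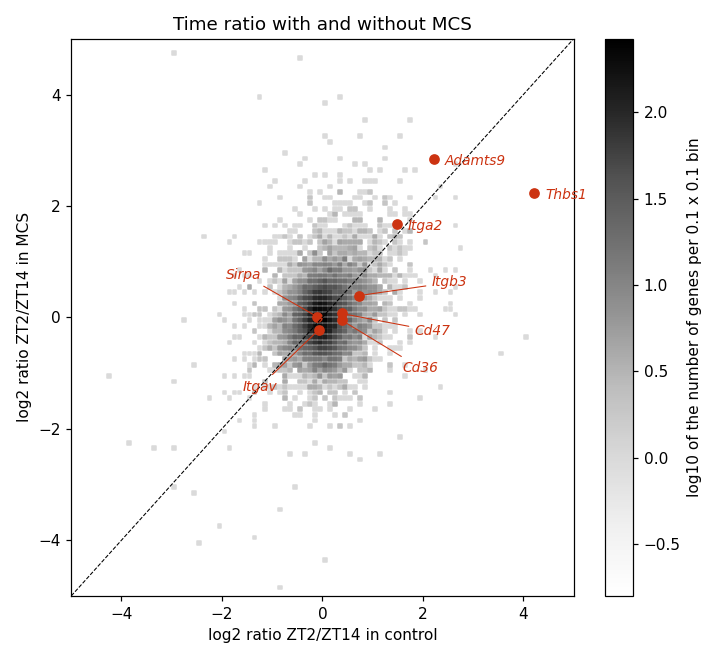
Log2 ratio of ZT2 to ZT14 in control (horizontal axis) and in MCS (vertical axis), with all genes as grey squares shaded by the log10 of the number of genes per bin, the 8 genes as red points and equal ratios along the dashed line. *Thbs1* (4.22 and 2.23) lies below the line, and *Adamts9* (2.22 and 2.84) and *Itga2* (1.49 and 1.67) lie on or above it.

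A count test was also run over the 4 libraries, the quasi-likelihood test of edgeR on a model in which time and MCS add up, with 1 residual degree of freedom. It called 301 of 12404 genes for time at an adjusted threshold of 0.05, which is 2.43%. *Thbs1*, *Itga2* and *Adamts9* were among them, and nothing is read from this count either. For MCS, it called 24 genes, 0.193%, and 0 of the 8 genes. Without adjustment, 304 of the 12404 genes passed 0.05 for the MCS term, a share below 0.05 itself. That term fits 1 common effect of MCS to ZT2 and ZT14, which the opposite signs of *Thbs1*, *Cd36* and *Cd47* do not meet.

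Per kb of the longest coding transcript, *Thbs1* and its receptors could be compared with each other within a library. Averaged over the 4 libraries, *Thbs1* had 111 CPM per kb and *Cd36* 109, followed by *Sirpa* at 92.7, *Cd47* at 25.8, *Itgav* at 10.1, *Itgb3* at 8.44, *Adamts9* at 1.86 and *Itga2* at 0.938. The ligand and its scavenger receptor changed places between the times. *Thbs1* was 1.95 times *Cd36* per kb in control at ZT2 and 0.137 times in control at ZT14. In MCS the ratio of these levels was 1.46 at ZT2 and 0.301 at ZT14. Against *Cd47*, *Thbs1* was 8.02 times as high per kb in control at ZT2, 0.558 times in control at ZT14, 6.12 times in MCS at ZT2 and 1.37 times in MCS at ZT14. *Thbs1* was thus above *Cd47* per kb in all libraries but the control at ZT14.

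The remaining thrombospondins and the other surface proteins that bind thrombospondin 1 were compared next. In the thrombospondin family, 3 of 5 genes were analysed here, and *Thbs1* was the one that met the criterion. *Thbs3*, named after its values were seen, had 8.89 CPM (ZT2) and 6.37 CPM (ZT14) in control, and 8.58 CPM (ZT2) and 7.36 CPM (ZT14) in MCS, and the intervals of all its ratios included no change. Of 12 tested genes for other receptors and binding proteins of thrombospondin 1, 0 were changed in any of the 4 comparisons, with median log2 ratios between -0.06 and 0.12. The highest CPM were those of *Lrp1*, an endocytic receptor that takes up thrombospondin 1, at 3496 to 4315 CPM, and *Itga6*, which encodes the laminin-binding α6 chain, at 1574 to 2065 CPM. *Itga6* was higher with MCS at ZT14, by a log2 ratio of 0.39 (0.36 to 0.42), and lower at ZT2, by -0.10 (-0.13 to -0.07).

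Few genes of integrin partners and of the machinery inside the cell met the criterion. Of 3 tested chains that pair with αv, β3 or α2, 1 was changed, *Itgb5*, which encodes a β chain that pairs with αv. It was higher at ZT2 than at ZT14 in MCS, at 3.25 against 1.53 CPM and a log2 ratio of 1.04 (0.13 to 2.09). Among integrin adaptors and kinases, 0 of the 13 to 14 tested genes were changed in any comparison. *Tln1*, which encodes the integrin-activating protein talin, had 2560 CPM (ZT2) and 2468 CPM (ZT14) in control, and 2326 CPM (ZT2) and 2957 CPM (ZT14) in MCS. *Syk*, a kinase gene of phagocytic signaling, had 891, 972, 948 and 775 CPM in the same order.

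Downstream of SIRPα and around CD47, 0 of 9 tested genes were changed in any comparison. *Calr*, the gene of calreticulin, which at the surface of target cells favors engulfment through LRP1, had 970 CPM (ZT2) and 862 CPM (ZT14) in control, and 1099 CPM (ZT2) and 941 CPM (ZT14) in MCS. Among 9 partners of CD36, *Fabp5*, the gene of a fatty acid carrier, was the only one changed. It was low, at 4.29 CPM in MCS at ZT14 against 1.32 CPM in control at ZT14 (log2 ratio 1.63, 95% interval 0.75 to 2.77) and 1.04 CPM in MCS at ZT2. The median log2 ratio of these 9 genes was between -0.08 and 0.19.

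Thrombospondin 1 is known to activate latent TGF-beta, and genes of that pathway were followed as well. In control, 0 of 14 tested genes were changed between ZT2 and ZT14, and 0 of 14 between MCS and control at ZT14. In MCS, 2 of 15 were changed between ZT2 and ZT14. *Smad7*, an inhibitor of TGF-beta signaling, was higher at ZT2, at 11.3 against 4.29 CPM (log2 ratio 1.37, 0.85 to 1.95). *Lrrc32*, which encodes a docking protein of latent TGF-beta, was lower at ZT2, at 1.16 against 2.86 CPM (-1.23, -2.51 to -0.22). At ZT2, *Tgfb3* was the 1 of 15 genes changed between MCS and control, at 1.51 against 0.693 CPM with a log2 ratio of 1.02 (-0.37 to 2.80).

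*Adamts9* was set beside the other ADAMTS and ADAMTS-like genes, of which 8 including *Adamts9* were tested. *Adamts14*, which encodes a protease that trims procollagen, had 11.2 CPM (ZT2) and 5.38 CPM (ZT14) in control, and 13.3 CPM (ZT2) and 4.91 CPM (ZT14) in MCS. Like *Adamts9* it was high in both ZT2 libraries, with log2 ratios of 1.04 (0.55 to 1.58) in control and 1.42 (0.94 to 1.96) in MCS. *Adamtsl5*, a family member without a protease domain, was the reverse in control. In control it went from 24.0 CPM at ZT2 to 58.1 CPM at ZT14, a log2 ratio of -1.27 (-1.51 to -1.04), and 30.4 and 32.3 CPM in MCS. The median log2 ratio of the 8 genes lay between -0.11 and 0.21.

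Other proteins with thrombospondin type 1 repeats held 0 changed genes among the 6 to 7 tested in each comparison. The highest CPM was that of *Cfp*, the gene of the complement regulator properdin, at 1758 to 2001 CPM, and *Sema5a*, a semaphorin gene, had 8.49 to 15.7 CPM. Of 3 tested substrates and inhibitors of ADAMTS proteases, *Vcan*, which encodes the versican core protein, was changed in control. It had 38.2 CPM (ZT2) and 12 CPM (ZT14) in control, and 33.2 CPM (ZT2) and 21.8 CPM (ZT14) in MCS. Its time ratio was 1.67 (1.36 to 2.00) in control and 0.60 (0.35 to 0.87) in MCS. *Timp3*, an inhibitor of these proteases, was changed in MCS alone, at 3.02 CPM at ZT2 and 1.33 CPM at ZT14 (1.12, 0.17 to 2.27).

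**Figure D4:**
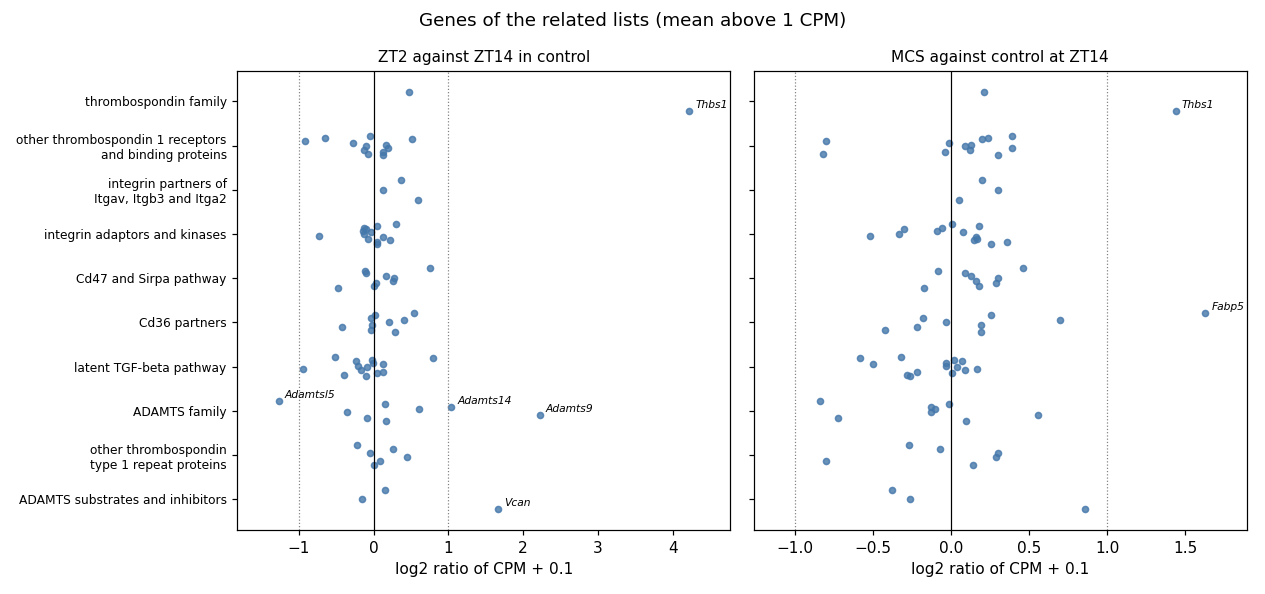
Log2 ratio of CPM + 0.1 (horizontal axis) of each gene with a mean above 1 CPM in the 10 related lists (rows), for ZT2 against ZT14 in control (left) and MCS against control at ZT14 (right), with 1 point per gene, dotted lines at -1 and 1, and names for genes beyond them. On the left *Thbs1* (4.22), *Adamts9* (2.22), *Vcan* (1.67), *Adamts14* (1.04) and *Adamtsl5* (-1.27) pass the lines, and on the right *Thbs1* (1.44) and *Fabp5* (1.63).

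Several of the 8 genes are also known from platelets, mast cells, natural killer cells or stromal cells, so markers of such cells were followed in the same libraries. Platelet and megakaryocyte markers, of which 8 of 13 were analysed here, added up to 1182 CPM (ZT2) and 902 CPM (ZT14) in control, and 960 CPM (ZT2) and 966 CPM (ZT14) in MCS. The sum was highest in control at ZT2 and lowest in control at ZT14, as were *Thbs1*, *Cd36* and *Cd47*, and 0 of 4 tested genes were changed. Most of it was *Selp*, which is on the list of large peritoneal macrophages as well, at 714 to 938 CPM, and *Pf4*, at 178 to 227 CPM. The platelet glycoprotein genes *Gp5* and *Gp9* and the platelet genes *Treml1* and *Clec1b*, named after their values were seen, were at or below 0.693 CPM in all libraries, and *Gp1ba* had 3.63 to 6.93 CPM. The part of platelets in the levels of the 8 genes was not tested.

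Fibroblast markers moved with *Thbs1* between the times and with MCS at ZT14, though not with MCS at ZT2. The 6 of 7 analysed here added up to 18.8 CPM (ZT2) and 5.16 CPM (ZT14) in control, and 21.8 CPM (ZT2) and 10.2 CPM (ZT14) in MCS. All 5 tested were higher at ZT2 in control, among them *Col1a2* at 2.54 against 0.330 CPM and *Col3a1* at 2.89 against 0.439 CPM, and *Pdgfra* was at 0 in 3 of the 4 libraries. At ZT14, 2 of 3 tested, *Col1a2* and *Col3a1*, were higher with MCS, from 17 against 3 and 27 against 4 reads. The third, *Dcn*, had a log2 ratio of 0.36 (-0.40 to 1.15), and the sum had 0.99. Below the minimum level, *Col1a1* was higher (1.33 against 0.439 CPM) and *Pdgfrb* lower (0.716 against 1.10 CPM). Mesothelial markers (8 of 8 analysed here) added up to 14.1, 6.15, 19.1 and 7.36 CPM in the same order, and 4 of 5 tested were higher at ZT2 in control. Divided by the fibroblast sum of each library, *Thbs1* had a 5.11-fold range over the libraries and *Adamts9* a 3.41-fold range, against 18.6-fold and 10.8-fold before. The fibroblast sum was as low as 5.16 CPM, so these divided ranges are rough. The part of these cells in the levels of *Thbs1* and *Adamts9* was not tested.

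Mast cell and natural killer cell markers moved with *Itga2* and *Adamts9*, high at ZT2 and highest in MCS at ZT2, although at ZT14 the mast cell sum was lower with MCS. *Itgb3* was also highest in MCS at ZT2, but its intervals in control at ZT2 and in MCS at ZT14 overlapped. The 9 mast cell markers added up to 1964 CPM (ZT2) and 1256 CPM (ZT14) in control, and 2472 CPM (ZT2) and 1067 CPM (ZT14) in MCS. Of these, 1 of 9 was higher at ZT2 in control (*Hdc*, at 97.2 against 43.9 CPM) and 7 of 9 in MCS, where *Mcpt4* had 291 against 97.5 CPM and *Kit* 142 against 56.9 CPM. The 8 of 9 natural killer cell markers analysed here added up to 52.1, 28.2, 66.1 and 32.5 CPM in the same order, with 4 of 7 tested higher at ZT2 both in control and in MCS. *Ncr1* had 7.28, 2.75, 9.63 and 3.58 CPM. Divided by the mast cell sum of each library, *Itga2* had a 2.59-fold range and *Adamts9* a 5.51-fold range, against 5.10-fold and 10.8-fold before. Divided by the natural killer cell sum, the ranges were 2.18-fold and 4.63-fold. They were narrower still with the fibroblast sum, at 1.53-fold and 3.41-fold, and with the mesothelial sum, at 1.64-fold and 3.48-fold. Those sums were small, at 5.16 and 6.15 CPM in control at ZT14. The range of *Itgb3*, 2.01-fold before, was 1.81-fold with the mast cell sum and 1.56-fold with the natural killer cell sum. It was 1.99-fold with the mesothelial sum and wider, 2.22-fold, with the fibroblast sum. The part of any of these cell types in these levels was not tested.

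**Figure D5:**
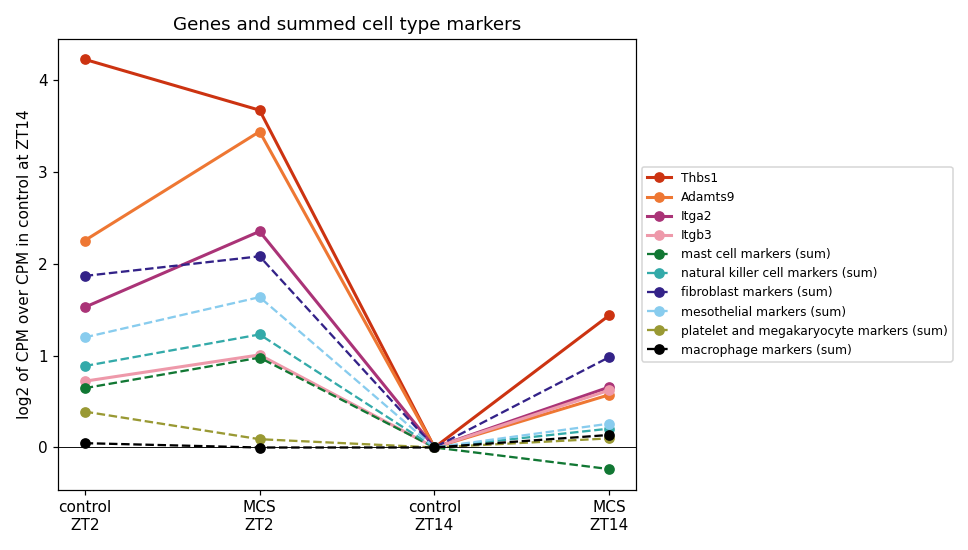
Log2 of CPM over the CPM in control at ZT14 (vertical axis) in the 4 libraries for *Thbs1*, *Adamts9*, *Itga2* and *Itgb3* (solid) and for summed cell type markers (dashed), with lines only to guide the eye. The macrophage sum, which is mostly *Lyz2*, stays near 0. Fibroblast, mesothelial, natural killer cell and mast cell sums are high in both ZT2 libraries, as are *Thbs1*, *Adamts9* and *Itga2*. *Itgb3* is low in control at ZT14 alone, and its control at ZT2 (51.9 CPM) is close to MCS at ZT14 (48.5 CPM).

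Of the other marker lists, the sums of small peritoneal macrophages and T cells were also higher at ZT2 and highest in MCS at ZT2, with smaller ratios. In control, the small peritoneal macrophage sum had a log2 ratio of 0.10 and its 8 markers a median of 0.11. *Irf4* (-0.42) and *Folr2* (-0.37) were lower at ZT2 there. Small peritoneal macrophage markers added up to 4381 CPM (ZT2) and 4092 CPM (ZT14) in control, and 5011 CPM (ZT2) and 4112 CPM (ZT14) in MCS, with 0 of 8 changed. T cell markers added up to 43.7, 32.6, 49.0 and 33.2 CPM in the same order. The lists that follow were not higher at ZT2 in both control and MCS. Red blood cell markers were at 3.23, 1.32, 36.7 and 112 CPM, neutrophil markers at 175, 226, 316 and 183 CPM and eosinophil markers at 67.8, 58.7, 77.8 and 90.1 CPM. B cell markers added up to 1276, 1556, 1240 and 1076 CPM, and endothelial markers, mostly *Pecam1*, to 61.2, 70.1, 68.0 and 48.7 CPM. The neutrophil sum was mostly *Csf3r*, at 143 to 205 CPM. At ZT2, 6 of 8 tested neutrophil markers were higher with MCS, among them *S100a9*, at 33.5 against 6.70 CPM. At ZT14, 1 of 6 was higher and 2 were lower. Of 4 eosinophil markers, 2 were higher with MCS at ZT14, *Ccr3* (33.8 against 1.32 CPM) and *Siglecf* (14.1 against 0.659 CPM). *Il5ra* was lower there, at 33.9 against 48.9 CPM (log2 ratio -0.52, -0.74 to -0.32), and *Ear2* had 8.18 against 7.80 CPM.

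The genes nearest in pattern were found by the Euclidean distance between log2 profiles over the 4 libraries, each centered on its mean, among 8630 genes with at least 10 CPM on average. Nearest to *Thbs1* was *Adamts9*, at a distance of 1.54, followed by *Nipal1* (1.57), *Zbtb16* (1.63), *Fkbp5* (1.74) and *Il7r* (1.78). These neighbors depend on the measure, since 0 of the 5 remained with Pearson correlation, for *Thbs1* and, with its own 5, for *Adamts9*. With a mean of at least 50 CPM, 2 of the 5 remained in each case. The others were below that cutoff in all libraries and could not remain. They were *Adamts9*, *Nipal1* and *Il7r* for *Thbs1*, and *Il7r*, *Amica1* and *Stat4* for *Adamts9*. *Nipal1* had 21.6 CPM (ZT2) and 3.41 CPM (ZT14) in control, and 11.3 CPM (ZT2) and 6.24 CPM (ZT14) in MCS, and so was lower with MCS at ZT2 and higher at ZT14, as *Thbs1* was. *Zbtb16* had 88.4, 18.5, 205 and 47.5 CPM and was higher with MCS at both times.

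*Adamts9* had closer neighbors, namely *Zbtb16* at 0.666, *Fkbp5* at 0.929, *Il7r* at 1.03, *Amica1* at 1.05 and *Stat4* at 1.11, and *Thbs1* ranked 18. *Itga2* was 0.987 from *Adamts9*, but its mean of 6.67 CPM was below the minimum of 10 CPM, so it was not ranked. *Fkbp5* had 173 CPM (ZT2) and 46.7 CPM (ZT14) in control, and 223 CPM (ZT2) and 35.4 CPM (ZT14) in MCS. For *Itga2*, added after the values were seen, the nearest were *Amica1* (0.270), *Ccl5* (0.276), *Il18rap* (0.331), *Hdc* (0.347) and *Il18r1* (0.432). *Hdc* is among the mast cell markers above, but with MCS at ZT14 it was higher (0.53), while the median of that list was -0.16. For *Itgb3*, also added later, they were *Hist1h2ak* (0.132), *Grk5* (0.155), *Atp8b4* (0.192), *Mki67* (0.192) and *Slc24a1* (0.194).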

How the data were processed

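RNA from 4 libraries of peritoneal macrophages was sequenced by the authors after depletion of ribosomal RNA, with directional libraries from 200 ng of total RNA. The labels and the study's methods name different RNA purification kits. The reads were trimmed with Trimmomatic (version 0.38) and counted per gene with RSEM (version 1.3.0) and Bowtie2, and the submitters' processing notes name mm10 and edgeR. The deposited values are CPM, scaled by the authors across libraries. The annotation version, the filter on expression and the strand setting are not given in the sources used here.

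Values were used as deposited. Each column was divided by its smallest step, and 100% of the values were whole reads within 0.05 read. Estimates by RSEM can be fractional, and any rounding by the authors is then included. Log2 ratios used CPM + 0.1. Counting intervals (95%) were exact Poisson for levels, Clopper-Pearson for ratios and a normal approximation for the difference of ratios. A ratio above 1 in size with a log2 mean above 0 counted as changed, as in the study's methods. Genes with at least 40 reads entered the count test, chosen because whole reads could be recovered. Its common dispersion was 0.0196, and it called 301 genes for time and 24 for MCS.

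The 25 gene lists, that of the 8 members included, were chosen with earlier results of these data known. Genes named are the 8 members and, per list, up to 4 changed genes with the widest ratio (ZT2 against ZT14 in control or MCS against control at ZT14) or else the 2 most abundant, plus the 5 genes nearest in pattern to *Thbs1* and to *Adamts9*. Those for *Itga2* and *Itgb3* were added after the values were seen. Lists covered the thrombospondin family, its receptors, integrin partners and adaptors, the CD47 and SIRPα pathway, CD36 partners, the TGF-beta pathway, ADAMTS and other repeat proteins, ADAMTS substrates and inhibitors, and cell type markers. From the TGF-beta list, 1 gene is not reported here and was left out of its counts after the values were seen. Positions and lengths came from GENCODE vM21 and promoters from RefSeq (GRCm38.p6). The scripts were tested on simulated data. The count test ran in edgeR 4.0.16 (R 4.3.3), and the rest in Python 3.11.15 with scipy 1.17.1, numpy 2.4.6, matplotlib 3.10.9 and pandas 2.3.3.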

Additional observations from a re-analysis of the deposited data

Results flagged for a closer look

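The comparison of MCS with control pointed in opposite directions at the 2 time points for *Thbs1*, *Cd36* and *Cd47*. The log2 ratio of *Thbs1* was -0.55 at ZT2 and 1.44 at ZT14, that of *Cd36* -0.13 and 0.30, and that of *Cd47* -0.16 and 0.14. The summed markers of large peritoneal macrophages also changed sign, at -0.15 and 0.12, though not every marker did. *Gata6* was above control at both time points (0.23 and 0.40) and *Prg4* below it at both (-0.16 and -0.25). With 1 library per condition, the difference between the time points was not tested.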

How the results depend on the processing

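All 128 recomputed log2 ratios of the 8 genes (pseudocounts of 1 and 0.01 CPM, rescaling to a median ratio of 1 and by TMM factors) kept their direction and side of the criterion. The count of changed members for MCS against control at ZT2 went from 1 to 0 when the whole interval had to lie beyond 1, since that of *Adamts9* did not. For ZT2 against ZT14 in control it went from 3 to 2 both with that requirement and with a log2 mean above 3, with *Itga2* lost each time. The counts of the other 2 comparisons did not move. Over all genes, changed genes between ZT2 and ZT14 in control numbered 450, and 229 with a pseudocount of 1 CPM, 1567 without a minimum expression, 139 with a log2 mean above 3 and 103 with the interval beyond 1. For ZT2 against ZT14 in MCS, the 731 genes became 409, 2053, 197 and 185 in the same order. For MCS at ZT2, 279 became 101, 1434, 26 and 37, and for MCS at ZT14, 421 became 174, 1615, 81 and 68. The split was 98 higher and 99 lower for the time ratio in MCS with a log2 mean above 3, and 755 higher and 860 lower for MCS at ZT14 without a minimum. Without the filter on low counts the count test called 43 genes for MCS in place of 24, with *Adamts9* among them. Of the 5 genes nearest to *Thbs1*, 0 were kept with Pearson correlation and 2 with a mean of at least 50 CPM, and the same numbers held for *Adamts9*. The genes lost at 50 CPM were themselves below that level, so their loss was set by the cutoff. No rescaling moved the median ratio of all genes by more than 0.013. No paired analysis was possible because each condition has 1 library, and no replicate could be left out. Ratios of *Itga2* and *Adamts9* at ZT14 rest on 23 to 48 reads per library.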
